A study of Mus musculus with 5 samples.

Results

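The baseline transcriptome of N2a cells was read from the 2 libraries transfected with a control siRNA (siCtrl), 2 of the 5 libraries in the series. N2a (Neuro-2a) is an established mouse neuroblastoma line that is widely used as a neuron-like cell, because it divides rapidly and can be made to extend neurites. The series was made to compare these cells with cells treated with an siRNA against Ewsr1, but no comparison with that group is made here. For each siCtrl library 50000 N2a cells were given control siRNA in 2 pulses with a lipid reagent, Lipofectamine RNAiMAX, and were collected 24 hours after the second pulse. The protocol states 100 µM siRNA, far above usual transfection doses, and a mistaken unit there cannot be settled from the labels. Both libraries therefore describe transfected cells, and no untransfected N2a library was analysed here. For each library 2 µg of total RNA went into a stranded protocol with ribosomal RNA depletion, without selection for poly(A) tails. The series text speaks of different RNA samples, and it does not say whether these came from separate cultures, so the spread between the libraries may be technical.

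Levels are in RPKM, reads scaled to the exonic length of the gene and to the library total, which allows genes of different length to be compared. Unless a sentence says otherwise, a pair of values gives the RPKM in replicate 1 and in replicate 2, in that order. The pair is the whole spread, with n = 2, and no test was possible with a single group. A gene is called present when it reached 1 RPKM in both libraries. The libraries held 15766280 and 17314511 counted reads, so a read was worth 0.0634 and 0.0578 CPM (reads scaled to the library total). A gene listed at 0 is given with the level that 3 reads would have had, as the limit that a count of 0 allows; these limits cover counting error only.

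Neuroblastoma arises from the sympathoadrenal branch of the neural crest, the embryonic cells that also give rise to sympathetic neurons and to the chromaffin cells of the adrenal gland. Cells of this branch turn on a set of transcription factors that includes Phox2a, Hand2, Gata2, Gata3 and Isl1, and with them the enzymes that make noradrenaline. The early neural crest factors, such as Sox10 and Foxd3, are lost as cells become neurons and are kept in the glial branch.

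Of 54781 genes with a restored value, 11808 were present, which is 21.6%. Of 21952 nuclear protein-coding genes 9996 were present, which is 45.5%, and 6963, or 31.7%, were listed at 0 in both libraries. These shares are the background against which each gene list is given below. The median level over all nuclear protein-coding genes was 0.474 RPKM, and over all restored genes it was 0. Few genes were abundant. In both libraries 4570 nuclear protein-coding genes reached 10 RPKM, 372 reached 100 and 15 reached 1000. The 972 genes with most reads made up 50% of the reads in replicate 1, and 991 did so in replicate 2. No single gene took more than 1.38% of the reads of a library.

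The most abundant nuclear messages were those of protein synthesis, chromatin and the cytoskeleton. Eef1a1, the elongation factor that brings aminoacyl-tRNA to the ribosome, ranked first at 3616 and 3744 RPKM (mean 3680 ± 91.1, SD, n = 2). Actb, cytoplasmic beta-actin, followed at 2116 and 2037 RPKM, and its range did not overlap that of the first or the third gene. Of the 20 most abundant genes 13 encode cytosolic ribosomal proteins and 3 encode histones. The remaining pair were Npm1, a nucleolar chaperone of ribosome assembly, at 1355 and 1344 RPKM, and Hsp90ab1, the constitutive cytosolic Hsp90, at 1336 and 1209 RPKM. Among the ribosomal proteins Rplp1 (1460 and 1602), Rps23 (1353 and 1341), Rps29 (1418 and 1184), Rplp0 (1183 and 1335) and Rpl38 (1320 and 1191) led, followed by Rpl8 (1159 and 1304), Rpl19 (1186 and 1237) and Rpl32 (1165 and 1197). The other members ran from Rps2 (955 and 1189) through Rpl23a (1072 and 1070), Rps27a (953 and 958) and Rpl36 (881 and 1019) to Rpl4 (885 and 932). The histone messages were Hist2h2bb at 1465 and 1757, Hist1h4k at 1101 and 1522 and Hist1h1b, a linker histone, at 956 and 914. Other annotated genes cover 100% of the exonic bases of Hist2h2bb and 62.3% of those of Rpl23a. The levels of both depend on how shared reads were counted. Replication-dependent histone messages carry no poly(A) tail, so their place in this order belongs to a total-RNA library. From the third gene down the order was loose. In 16 of the 20 the 2-library range overlapped that of the next gene, and such neighbours do not differ beyond their spread.

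**Figure D1:**
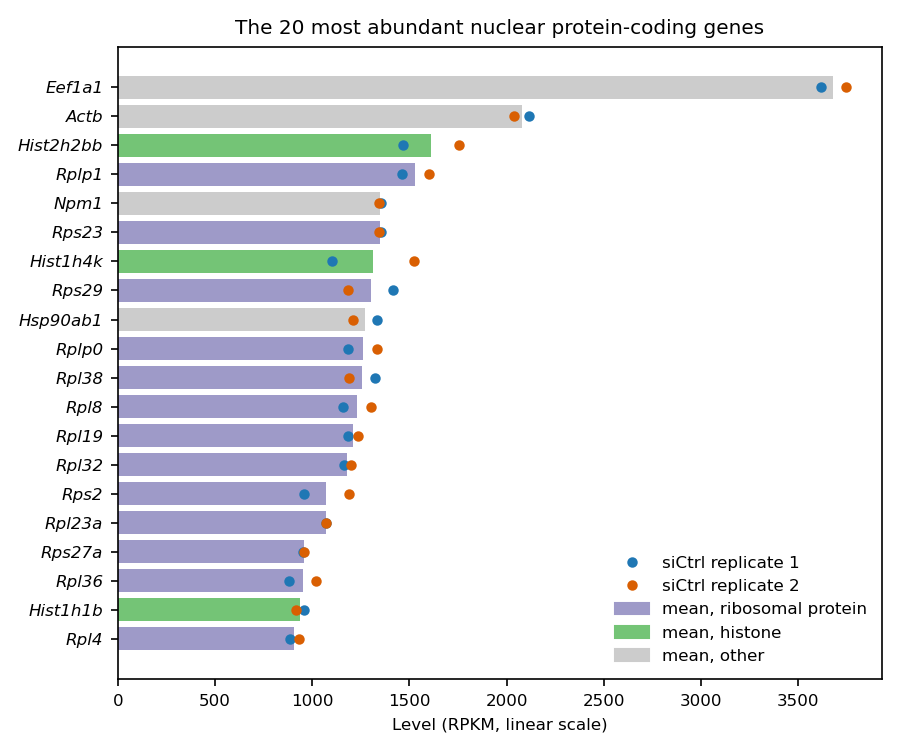
Level in RPKM (horizontal, linear axis) of the 20 nuclear protein-coding genes with the highest mean; bars are means of 2 libraries, coloured by class, and points are the single libraries. Eef1a1 and Actb stand clear of the rest, while the ranges of most neighbours below them overlap.

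The order depends on how length is treated. Ranked by share of reads, without division by length, 10 of the 20 genes were the same. The genes that entered were longer, among them Atp5b, a subunit of mitochondrial ATP synthase, with 0.329% of reads, and Map1b, a neuronal microtubule-binding protein with 15846 exonic bases, with 0.185%. The 100 most abundant nuclear coding genes had a median exonic length of 1655 bases, against 4462 bases for all 9996 present genes. Of those 100 genes 18 had a single exon, against 256 of the 9996 (2.56%). The 100 included 43 ribosomal protein genes and 17 histone genes. As a group, 85 of 86 cytosolic ribosomal protein genes named by symbol were present, with a median of 328 RPKM, and they took 6.17% and 6.44% of reads. Rpl3l, whose message is otherwise known from muscle, was the exception, with a mean of 0.0579 RPKM. Many ribosomal protein genes, histone genes, Actb and Gapdh have near-identical copies elsewhere in the genome, and how reads that fit several copies were counted is not given in the sources used here, so their levels are uncertain.

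The sympathoadrenal programme was present in part. Of 24 transcription factors in the list 15 (62.5%) were present, with a list median of 6.08 RPKM, against 45.5% and 0.474 RPKM for nuclear protein-coding genes at large. Hand2, the basic helix-loop-helix factor of sympathetic neurons and of the heart, was highest at 89.1 and 84.8 RPKM, and ranked 462 among nuclear coding genes. Sox4, a factor of young neurons and of many tumours, was at 46.1 and 42.3. Of its exonic bases 54.6% also belong to another annotated gene, so reads may have been lost to the overlap. Lmo1, a cofactor known as a neuroblastoma oncogene, was at 32.9 and 38.7. Phox2a, a homeodomain factor of autonomic neurons, was at 15.1 and 14.6. Sox11 (15.7 and 14.3), Tbx2 (10.1 and 12.1) and the zinc-finger factor Gata2 (10.5 and 9.69) followed. Isl1 (8.46 and 7.97), Insm1 (8.53 and 8.38) and Mycn (7.33 and 7.57), the Myc family member amplified in many human neuroblastomas, lay just below. Myc itself was higher than Mycn, at 27.3 and 22.6, and Mycl was at 0.11 and 0.143. Gata3 was low at 2.89 and 2.41. Insm2 and Tlx2 were listed at 0 in both libraries. For Insm2 3 reads would have given 0.0715 and 0.0651 RPKM. Hand1, the relative of Hand2, had 3 reads in replicate 1 and 2 in replicate 2.

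**Figure D2:**
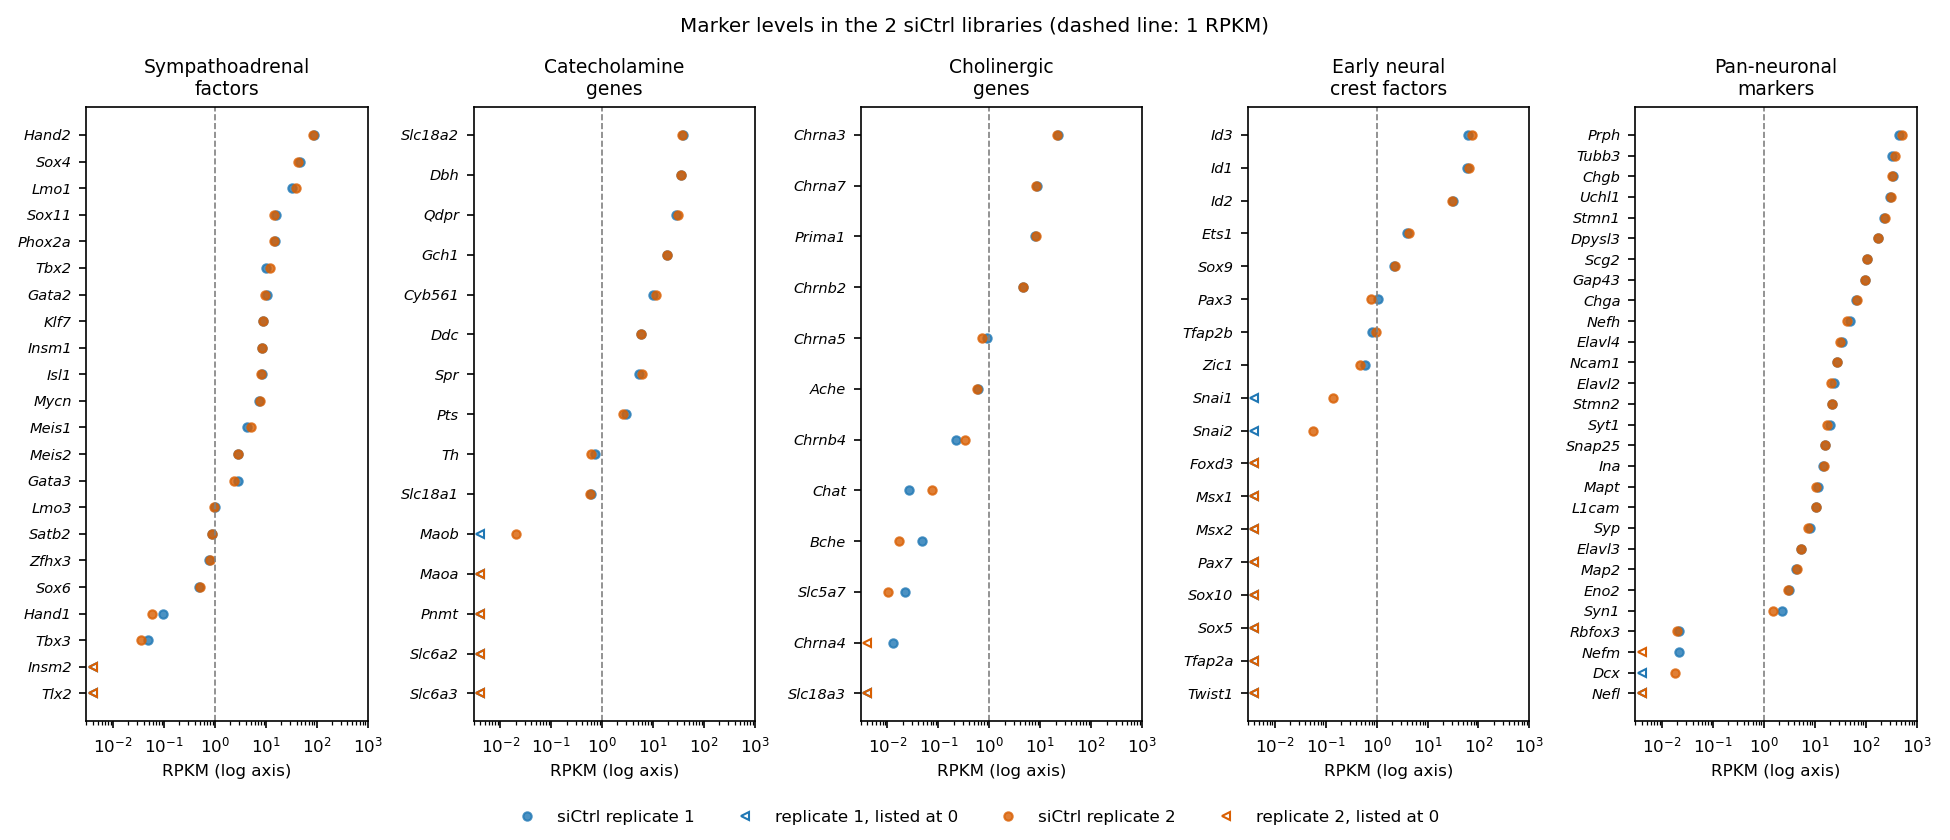
Level in RPKM (horizontal, log axis) of the members of 5 marker lists, a few left out, in the 2 siCtrl libraries; points are single libraries, open triangles at the left edge mark genes listed at 0, and the dashed line is 1 RPKM. Present genes lie close together in both libraries, and each list also holds members at or near 0.

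The noradrenaline pathway was uneven. Of 16 genes for catecholamine synthesis, storage and uptake 9 were present (56.2%). Dbh, which converts dopamine to noradrenaline, was at 35.1 and 34.6 RPKM, and Slc18a2, the vesicular monoamine transporter, at 37.8 and 36.4. The cofactor enzymes Qdpr (27.6 and 31), Gch1 (18.5 and 18.5), Spr (5.39 and 5.95) and Pts (2.98 and 2.59), which make or recycle tetrahydrobiopterin, were present. So were Cyb561, at 10.1 and 11.5, and Ddc, the decarboxylase that makes dopamine, at 5.77 and 5.7. Th, tyrosine hydroxylase, the rate-limiting first enzyme, stayed under 1 RPKM at 0.724 and 0.611, from 27 and 25 reads. Dbh, Slc18a2 and Th thus differed in level within each library, with Th the lowest. Pnmt, which makes adrenaline, the noradrenaline transporter Slc6a2, the dopamine transporter Slc6a3 and the oxidase Maoa were listed at 0 in both libraries. The limit for Slc6a2 was 0.0303 and 0.0275 RPKM.

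Genes of other transmitters were mostly low. Of 12 cholinergic genes 4 were present (33.3%), against 45.5% of nuclear protein-coding genes. They were the nicotinic receptor subunits Chrna3 (21.9 and 21.4), Chrna7 (8.56 and 8.09) and Chrnb2 (4.59 and 4.62) and the acetylcholinesterase anchor Prima1 (7.85 and 8.39). Of the other receptor subunits in the list Chrna5 was at 0.913 and 0.721, Chrnb4 at 0.221 and 0.326 and Chrna4 at 0.0126 and 0. Chat, choline acetyltransferase, was at 0.027 and 0.0737, the vesicular transporter Slc18a3 was listed at 0, and Ache was at 0.59 and 0.562. In the serotonergic list both tryptophan hydroxylases were present, Tph2 at 4.85 and 4.59 and Tph1 at 2.76 and 2.97. The serotonin transporter Slc6a4 was at 0.028 and 0.0892, Fev had no read in replicate 1 and 0.0714 RPKM in replicate 2, and Lmx1b was listed at 0. Tph2 was thus several times the level of Th. Of 8 glutamatergic markers 1 was present, the receptor subunit Gria2 at 2.6 and 2.65, and the transporter Slc17a6 was listed at 0. Among 10 GABAergic and glycinergic markers Dlx1 was present at 1.48 and 1.33, while Gad1 was listed at 0. Of 7 midbrain dopaminergic factors Nr4a2 was present at 1.03 and 1.12, and En1, En2, Foxa2 and Lmx1a were listed at 0.

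Neuronal structure genes were abundant, with gaps. Of 28 pan-neuronal markers 24 were present (85.7%), with a median of 20.4 RPKM. Prph, peripherin, the intermediate filament of peripheral neurons, led at 453 and 524 RPKM and ranked 57 among nuclear coding genes. Tubb3, the neuronal beta-tubulin, followed at 328 and 370. Chgb, a protein of dense-core granules, was at 348 and 328, and Uchl1, a neuronal deubiquitinase, at 296 and 308. Stmn1 (233 and 243), Dpysl3 (172 and 175), Scg2 (108 and 104) and Gap43 (98.1 and 98.5), all known from growing axons or secretory granules, completed the 8 highest. The synaptic vesicle genes were lower, at 19.9 and 17.5 for Syt1, 8.08 and 7.3 for Syp and 2.31 and 1.49 for Syn1. The neurofilaments did not go together. Nefh, the heavy chain, was at 48.1 and 42.9 and Ina at 14.6 and 15.5, while Nefl, the light chain, was listed at 0 and Nefm had a value of 0.0219 in replicate 1 and 0 in replicate 2. Another gene's exons cover 32.8% of the exonic bases of Nefl, and the limit for it was 0.0563 and 0.0513 RPKM. Rbfox3, which encodes the mature-neuron antigen NeuN, was at 0.0218 and 0.0199. Dcx, doublecortin, had no read in replicate 1 and 0.0183 RPKM in replicate 2.

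Splicing and repressor genes that set neuronal expression were present in both opposing roles. Of the 12 genes of this list 11 were present. Ptbp1, the repressor of neuronal exons that neurons switch off, was at 67.9 and 65.5, above its neuronal counterpart Ptbp2 at 15.1 and 15.3. Rest, which silences neuronal genes in other tissues, was at 6.22 and 6.36, with its corepressors Rcor2 (15.8 and 16.9) and Rcor1 (9.11 and 7.69). Srrm4, which in neurons splices Rest to a less active form, was at 1.7 and 1.63. The splicing factors Rbfox2 (19.1 and 19.6), Celf3 (8.62 and 8.28), Celf4 (2.72 and 2.56), Nova1 (2.52 and 2.48) and Rbfox1 (1.21 and 1.35) were also present. Nova2 was not, at 0.682 and 0.752.

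The receptor set was that of a cell with Ret and the low-affinity neurotrophin receptor. Of 12 receptors 8 were present. Ret, the signalling receptor for GDNF-family ligands, was at 57.1 and 59.3, and Ngfr, the p75 neurotrophin receptor, at 38.5 and 39.1. Sort1, a coreceptor of Ngfr, was at 18.5 and 18.7. Other members were at a few RPKM, with Gfra1 at 2.71 and 2.71, Ltk at 2.06 and 1.91 and Ntrk3 at 1.35 and 1.61. Alk, the receptor kinase mutated in familial neuroblastoma, was at 2.47 and 2.59. Ntrk2, the BDNF receptor, and the GDNF-family coreceptors Gfra3 and Gfra4 were listed at 0.

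Neuroendocrine granule genes were among the most abundant of the marker lists. Of 16 members 11 were present, led by Chgb and Scg2 above, Scg3 (82.3 and 78.1), Chga (64.7 and 66.7), Vgf (43.2 and 40.4), Scg5 (40 and 41.7), the processing carboxypeptidase Cpe (36.4 and 30.9) and Pcsk1n (6.16 and 7.01). Of the peptide genes Cartpt was at 5.71 and 5.56 and Npy at 1.12 and 2.45, while Penk and Gal were listed at 0. The prohormone convertase Pcsk2 was at 1.34 and 1.34, and Pcsk1 was at 0.0792 and 0.113.

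Early neural crest and glial genes were mostly under 1 RPKM. Of 18 early crest factors 5 were present (27.8%), against 45.5% of nuclear protein-coding genes. The Id genes, inhibitors of basic helix-loop-helix factors and targets of BMP signalling in many cells, were Id3 at 62.3 and 75.6, Id1 at 59.8 and 65.5 and Id2 at 31.6 and 30.4, followed by Ets1 (4.03 and 4.31) and Sox9 (2.16 and 2.25). Pax3 (1.05 and 0.765), Tfap2b (0.801 and 0.975) and Zic1 (0.602 and 0.477) were detected but did not reach 1 RPKM in both libraries. Snai1 and Snai2 had at most 0.143 RPKM in a library. Sox10, Foxd3, Tfap2a, Twist1, Msx1, Msx2, Pax7 and Sox5 were listed at 0 in both libraries. For Sox10 the limit was 0.0624 and 0.0568 RPKM. Of 12 Schwann cell and glial precursor markers only Erbb3 was present, at 2.14 and 1.88, and S100b and Cdh19 were listed at 0. Of 16 factors of the mesenchymal neuroblastoma state 6 were present (37.5%), against 45.5% of nuclear protein-coding genes. Vim, vimentin, was the abundant one at 258 and 280, and Tead1 (4.74 and 5.53), Fn1 (5.06 and 4.65), Fosl2 (3.89 and 3.68), Wwtr1 (3.21 and 2.91) and Notch2 (2.32 and 2.34) were low. Prrx1 and Yap1 were the lowest of the 16, with at most 0.00685 RPKM in a library. Maml2, at 0.644 and 0.604, was the highest of the members that were not present. Of 12 neural progenitor markers 5 were present (41.7%), a share near that of nuclear protein-coding genes. They were Nes (11.9 and 11.4), Msi2 (11.6 and 10.6), Msi1 (3.31 and 3.12), Prom1 (1.13 and 1.32) and Pax6 (1.16 and 1.27). Sox1, Sox2, Sox3, Neurog1 and Neurog2 were listed at 0.

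Of 19 pluripotency and oncofetal genes 6 were present (31.6%), against 45.5% of nuclear protein-coding genes. Lin28a, an RNA-binding protein that blocks maturation of let-7 microRNAs, was at 43.3 and 42.7, and its paralogue Lin28b at 29.6 and 28.4. Terc, the RNA template of telomerase, differed between the libraries, at 33 and 73.5, while Tert, the catalytic subunit, was at 2.93 and 2.65. Hmga1 was at 9.1 and 10.4 and Klf4 at 2.25 and 2.18. Pou5f1, Sox2, Sall4, Dppa3 and Dppa5a were listed at 0. Of the fetal RNA-binding proteins that often accompany Lin28, Igf2bp1 had at most 0.00655 RPKM and Igf2bp3 was at 0.257 and 0.297.

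The proliferation list holds genes of the cell cycle and also growth suppressors (Cdkn1a, Cdkn2a, Cdkn2b and Trp53). Of its 21 members 18 (85.7%) were present, with a median of 34.5 RPKM. Top2a, the topoisomerase of dividing cells, was at 179 and 176, Cdk4 at 135 and 150, Ccnb1 at 132 and 134 and Ccna2 at 92.7 and 88. Pcna (84.7 and 84.3), Cdk1 (76.6 and 81.9), Ccnd1 (80.4 and 77.4) and Mki67 (75.6 and 81.9) completed the 8 highest. Of the D cyclins Ccnd1 was thus at about 80 RPKM, Ccnd3 at 4.64 and 4.46, and Ccnd2 was listed at 0 with a limit of 0.0202 and 0.0184. At the tumour-suppressor locus Cdkn2a was at 17.9 and 19.7 and its neighbour Cdkn2b was listed at 0. Trp53 was at 11.7 and 10.2, its regulator Mdm2 at 35.4 and 33.5 and its target Cdkn1a at 4.25 and 4.08.

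The Hox genes, which record position along the body axis, were nearly all at 0. Of 39 Hox genes 3 were present, and all 3 lie in the C cluster on chromosome 15. Hoxc9 was at 4.88 and 4.85, Hoxc10 at 3.16 and 2.42 and Hoxc6 at 2.13 and 2.45. Hoxc5, Hoxc8 and Hoxc4 were between 0.173 and 0.58 RPKM, and Hoxc11, Hoxc12 and Hoxc13 were listed at 0. The 30 genes of the A, B and D clusters together had 0 reads in replicate 1 and 3 in replicate 2, all of them in Hoxb4. Of 21 factors that mark brain regions 1 was present, and 13 were listed at 0, among them Otx2, Emx2 and Gbx2.

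Markers of other lineages were mostly under 1 RPKM. Of 128 such markers in 14 lists 8 were present, against 45.5% of nuclear protein-coding genes. In both libraries 66 were listed at 0, against 31.7% of nuclear protein-coding genes. The lists were chosen with earlier results of these data known, so these counts are not an independent check of the cell label. In 7 of the 14 lists no member was present. Those were the astrocyte (highest Aldoc, 0.719 and 0.566, then Gfap, 0.0752 and 0.0685), lymphocyte (Cd79a, 0.0435 and 0.0793, and Ptprc, at most 0.00346), erythroid (Epor, 0.925 and 1.45, and Klf1, 0.0829 and 0), endothelial (Pecam1, 0.56 and 0.547, and Erg, 0.384 and 0.417), hepatocyte (Afp, 0.0753 and 0.0857, and Apob, 0.00455 and 0.00829), pancreatic islet (Ppy, 0.888 and 0.462, and Iapp, 0.0651 and 0) and germ cell lists (Dazl, 0.88 and 0.756, and Dnd1, 0.552 and 0.694). The globin genes Hba-a1, Hba-a2, Hbb-bs and Hbb-bt, which are near-identical within each pair, were listed at 0. Most present markers stood alone in their lists. Myh3, the embryonic skeletal myosin heavy chain, was at 36.8 and 35.9 RPKM from 3514 and 3764 reads, while Myod1, Myog and Ckm were listed at 0 and Tnnt2 was at 0.761 and 0.767. Fbln1, an extracellular matrix protein, was at 33.5 and 33.5 and Acta2 at 2.88 and 2.63, while Col1a1 had no read in replicate 1 and 0.0088 RPKM in replicate 2. Of 9 microglia and macrophage markers 1 was present, while Csf1r, Itgam and P2ry12 were listed at 0 and Cd68 was at 0.656 and 0.735. Pparg was at 6.36 and 5.5 with Fabp4 and Plin1 at 0 and Lipe at 0.56 and 0.412. Grhl2, an epithelial factor, was at 4.93 and 5.52 with Krt8 at 0.356 and 0.442 and Epcam at 0.0289 and 0.0263. Mitf was at 2.27 and 2.41 with Tyr and Dct at 0 and Pmel at 0.304 and 0.353, and Cnp was at 1.67 and 1.65 with Mbp at 0.43 and 0.392 and Olig2 at 0. In bulk RNA a low level in every cell and a high level in a few cells cannot be told apart.

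**Figure D3:**
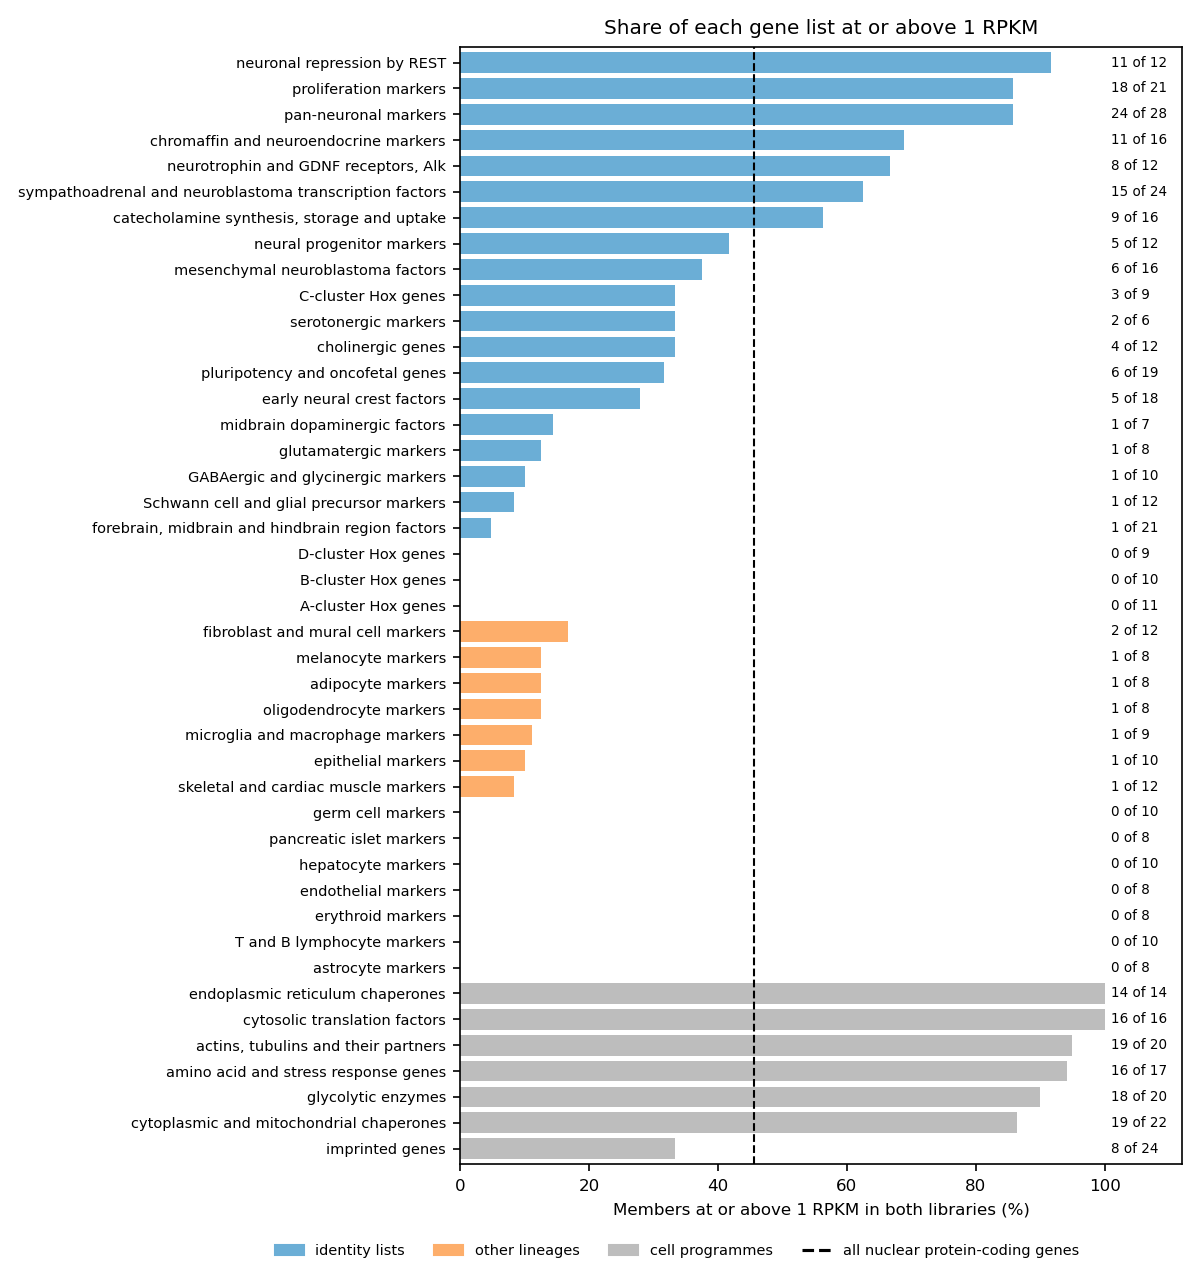
Share of each gene list that reached 1 RPKM in both siCtrl libraries (horizontal, percent), with the number of members at the right; the dashed line is the share over all nuclear protein-coding genes, 45.5%. Pan-neuronal, proliferation and granule lists lie above the line, while Hox lists and lists of other lineages lie below it.

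Of 8 Y-linked and X-inactivation genes 1 was present. Xist, the noncoding RNA that coats the inactive X chromosome, was at 11.9 and 14.7 RPKM from 3372 and 4554 reads. Its antisense partner Tsix had no read in replicate 1 and 0.0285 RPKM in replicate 2. Over the whole Y chromosome 1570 genes held 17 and 19 reads in all, and none was present. Sry, Ddx3y, Uty, Kdm5d and Zfy1 were listed at 0, and Eif2s3y had 1 read in replicate 1 and 0 in replicate 2.

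The housekeeping programmes were nearly complete. All 16 translation factors were present, with Eef2 (683 and 757), Eif5a (333 and 327), Tpt1 (253 and 258) and Eef1g (235 and 252) next after Eef1a1. Eef1a2, the form that mature neurons and muscle use in place of Eef1a1, was at 61.8 and 59.1. Of 22 chaperones 19 were present, led by Hsp90ab1, Cct2 (598 and 583), Hspa8 (507 and 518), Hspd1 (494 and 453) and Ppia (466 and 466). The members not present were the heat shock genes Hspb1, Hspa1a and Hspa1b. Hspb1 was listed at 0 with a limit of 0.185 and 0.168. Hspa1a was listed at 0 and Hspa1b was at 0.0226 and 0.0412, though they are near-identical copies whose reads may have been left out. All 14 endoplasmic reticulum chaperones were present, with Canx (515 and 485), Hspa5 (382 and 387), Hsp90b1 (348 and 311), Calr (301 and 304) and P4hb (249 and 271) the highest. Of 20 actin and tubulin genes 19 were present, and after Actb came Actg1 (562 and 580), Tubb5 (486 and 533), Tuba1a (439 and 426) and Tuba1b (367 and 405).

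Of 20 annotated entries for glycolytic genes 18 were present. Ldha (317 and 353), Aldoa (241 and 253), Pkm (207 and 243), Eno1 (134 and 135) and Pgk1 (116 and 116) led. Ldhb, the other common subunit of lactate dehydrogenase, was listed at 0 in both libraries, with a limit of 0.121 and 0.11 RPKM. Genes of amino acid supply and of the Atf4 response were high, with 16 of 17 entries present and a median of 54 RPKM. Asns, asparagine synthetase, was at 519 and 533 and Atf4 at 436 and 440. Phgdh (131 and 144), Shmt2 (108.7 and 123) and Psat1 (116 and 111.4), enzymes of serine and one-carbon metabolism, followed. The entry at 0 was a second, 105-base record of Ddit3 that lies wholly within another gene, and the main Ddit3 record was at 37.9 and 40.7. Without libraries from untransfected cells, whether these levels belong to the line or to transfection was not tested.

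Of 24 imprinted genes, which are transcribed from a single parental copy, 8 were present (33.3%), against 45.5% of nuclear protein-coding genes. Mest was the highest at 237 and 214, followed by Impact (69.9 and 66.2), Peg3 (49.6 and 50.8), Gnas (45.3 and 44) and Ube3a (22.8 and 22.9). Igf2, H19, Plagl1 and Rtl1 were listed at 0, Dlk1 and Meg3 were under 0.04 RPKM in both libraries, and other genes cover 64.5% of the exonic bases of Igf2. Ewsr1, the RNA-binding protein that the series' other siRNA targets, was at 71.7 and 72.3 in these control cells. Its relative Taf15 was lower, at 15.6 and 15.7.

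Reads outside nuclear protein-coding genes made up a small part of the libraries. Nuclear protein-coding genes took 93.2% and 93.6% of counted reads (mean 93.4% ± 0.304, SD, n = 2). Long noncoding genes together with the unverified class TEC took 2.46% and 2.84%, mitochondrial rRNA 1.55% and 0.799%, mitochondrial messages 1.18% and 1.09%, pseudogenes 0.732% and 0.737% and the miscellaneous structured RNAs 0.428% and 0.442%. Small nucleolar RNAs took 0.0508% and 0.0516% and small nuclear RNAs 0.0242% and 0.0229%. Histone genes took 0.971% and 1.21%. Of 12993 long noncoding and TEC genes 703 were present (5.41%), of 13204 pseudogenes 537 (4.07%) and of 2194 microRNA hairpin genes 243 (11.1%). Hairpin genes are short, so very few reads reach 1 RPKM. For Gm23935, with 57 bases, 3 reads give 3.34 and 3.04 RPKM. The share of hairpin genes therefore cannot be set against those of the longer classes. Reads in microRNA genes were not separated into mature forms, precursors and host transcripts.

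**Figure D4:**
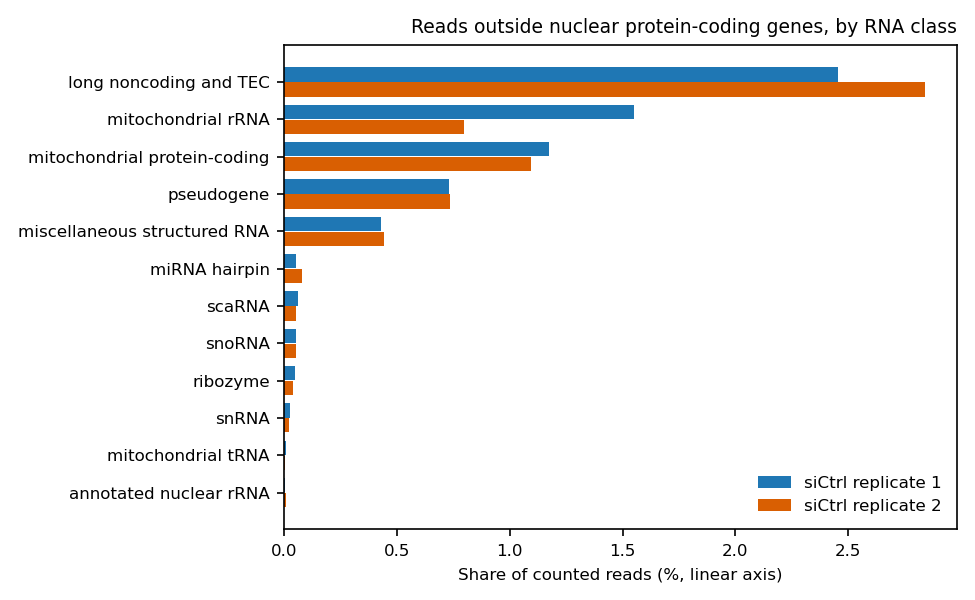
Share of counted reads (horizontal, percent, linear axis starting at 0) in each annotated RNA class outside nuclear protein-coding genes, with a bar for each siCtrl library. Mitochondrial rRNA is the class in which the libraries differ most, at 1.55% and 0.799%.

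A few genes held most noncoding reads. Rn7sk, the RNA that holds the elongation factor P-TEFb inactive, had the highest level at 9961 and 10831 RPKM, from 51981 and 62071 reads. Gm26917, annotated as a long noncoding gene on chromosome 17 (GRCm38 39843013 to 39846341), had 165813 and 227267 reads, or 3159 and 3943 RPKM. Gm42418 lies beside it on the same strand (39846958 to 39848788), with 626 and 1177 RPKM. On the opposite strand GENCODE places a gene typed as rRNA, CT010467.1 (39846353 to 39848827), which overlaps Gm42418, begins just past the end of Gm26917 and had 828 and 1062 reads. Of the bases of Gm42418 99.5% are shared with other annotated genes, and reads in it can be assigned only if strand was used in counting. The pair took 1.17% and 1.53% of counted reads, and whether these reads are remains of ribosomal RNA was not tested. The mitochondrial rRNAs mt-Rnr2 (8725 and 4567 RPKM) and mt-Rnr1 (1774 and 800.3) were also among the 10 largest. Malat1, a nuclear-retained RNA, was at 258 and 217, and Gas5, a snoRNA host, at 182 and 165. Cct6a (306 and 302), a chaperonin subunit, was typed as a processed transcript in this annotation, and the remaining genes of the 10 were the processed pseudogenes Gm15459 (526 and 528) and Gm15772 (1253 and 1318), whose reads may belong to their parent genes.

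Of 34 long noncoding RNAs in the list 20 were present (58.8%), against 5.41% of all long noncoding and TEC genes. Besides Malat1 and Gas5 the highest were the snoRNA hosts Snhg1 (90.7 and 88.3), Zfas1 (81.1 and 77.7) and Snhg5 (70.8 and 70.3). Neat1, the scaffold of paraspeckles, was low at 4.29 and 4.66. Meg3 was at 0.0281 and 0.0192, and H19, Hotairm1, Pantr1 and Sox2ot were listed at 0. Of 24 entries in the structured RNA list 16 were present. That count includes Lars2 (1.64 and 10.1), a protein-coding gene that the list also holds. After Rn7sk the highest were the signal recognition particle RNAs Rn7s2 (1395 and 1296) and Rn7s1 (1126 and 790.1), the RNase P related Rprl3 (1492 and 1080.0) and Rny1 (206 and 158). Rmrp appears as 2 overlapping records, each sharing at least 96.4% of its bases with other genes, and both were listed at 0. Such a pair cannot be read as absence where reads that fall in 2 genes are not counted.

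Mir17hg, the host gene of the oncogenic miR-17 cluster, which Myc proteins are known to activate, was at 15 and 13.6 RPKM. It lies on chromosome 14 (GRCm38 115042879 to 115046727, plus strand), and the host transcript carries 6 microRNA hairpins. Their main mature sequences, taken from RefSeq (GRCm38.p6), are shown because the host level speaks for all 6 at once while their targets differ by seed. Capitals mark the seed, bases 2 to 8 from the 5′ end, and sequences with the same seed stand together. The mature microRNAs were not measured.
mmu-miR-17-5p: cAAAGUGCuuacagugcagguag
mmu-miR-20a-5p: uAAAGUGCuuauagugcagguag
mmu-miR-18a-5p: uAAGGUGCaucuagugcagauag
mmu-miR-19a-3p: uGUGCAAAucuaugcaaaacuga
mmu-miR-19b-3p: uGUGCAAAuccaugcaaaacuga
mmu-miR-92a-3p: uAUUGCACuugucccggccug
The 6 sequences fall into 4 seed groups, with miR-17 and miR-20a sharing one seed and miR-19a and miR-19b another.

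The mitochondrial messages were very uneven. mt-Co1 was at 5843 and 5460 RPKM, mt-Cytb at 1074 and 1027 and mt-Nd1 at 860 and 746, while mt-Co3 was at 45.2 and 31.2, mt-Co2 at 26.2 and 17.2 and mt-Atp6 at 8.66 and 5. These genes lie on a single polycistronic transcript of each strand, from which the single messages are cut. The level of mt-Co1 was 675 times that of mt-Atp6 in replicate 1 and 1091 times in replicate 2. Parts of the mitochondrial genome have near-identical copies in the nuclear genome. Gm29216, typed as an unprocessed pseudogene on chromosome 1, was at 83.7 and 44 RPKM and was higher in replicate 1, as the mitochondrial rRNAs were. The part of such copies in these levels was not tested.

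The libraries agreed closely for most genes. Agreement was partly built in, because the decimal place was chosen to favour readings at which the libraries of the series lie close together. In 955 genes the chosen reading lay above the lowest whole reading in a siCtrl library. Over 24563 genes above 0 in either library Pearson's r of log2(RPKM + 0.1) was 0.965 and Spearman's rho of RPKM was 0.93; these are across genes of 2 libraries, which share a protocol and gene lengths, and genes are not independent replicates. Ratios were taken for the 9994 genes with at least 100 mean reads, as log2 of replicate 2 over replicate 1 after scaling to counted reads, and their median was 0.02. Of these genes 89.9% lay within 1.2-fold. Replicate 2 was at least 1.5-fold above replicate 1 in 47 genes (0.47%) and at least 1.5-fold below it in 18 (0.18%). The spread was larger than counting alone gives. In genes with 1000 to 10000 mean reads the robust SD of the log2 ratio was 0.11, against a counting SD of 0.05, which leaves about 4.95% of variation per library. In genes with 100 to 1000 reads the same values were 0.17 and 0.10, and in those with 10 to 100 reads 0.49 and 0.40. Over all 9994 genes 31.2% lay beyond 2 counting SD. A total of 4556 genes were above 0 in a single library, none with more than 19 reads.

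**Figure D5:**
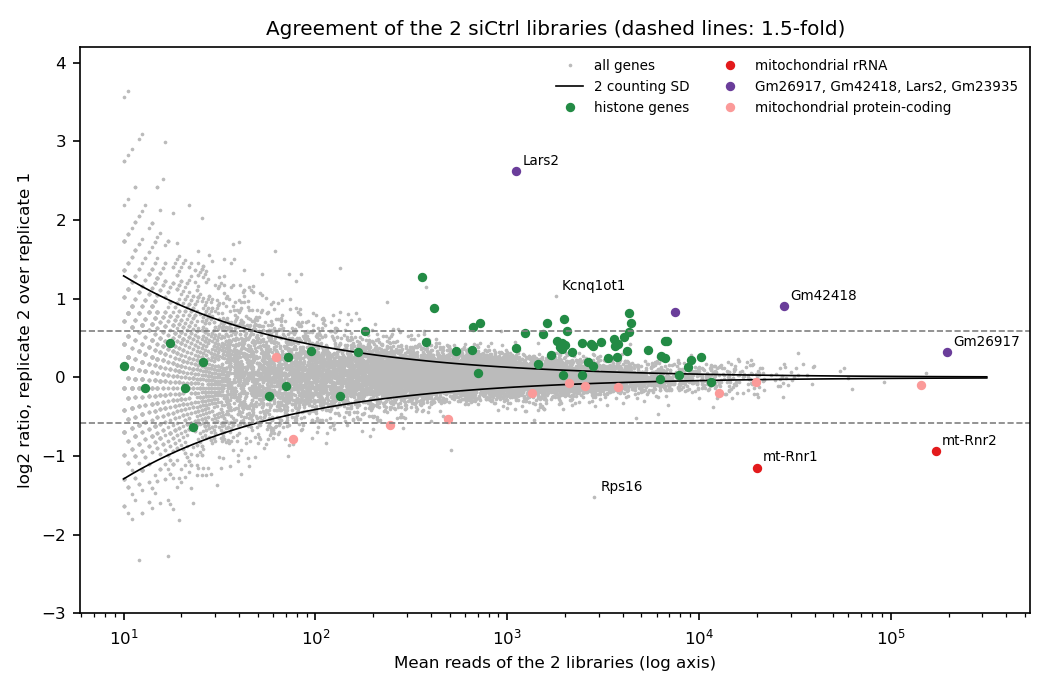
Log2 ratio of replicate 2 to replicate 1 (vertical) against the mean reads of the 2 libraries (horizontal, log axis) for genes with at least 10 mean reads; solid curves mark 2 counting SD, dashed lines 1.5-fold, and colours mark named classes. Most genes lie between the dashed lines, the mitochondrial rRNAs lie below them, and most histone genes lie above 0.

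Genes higher in replicate 2 were led by Lars2, the mitochondrial leucyl-tRNA synthetase, at 1.64 and 10.1 RPKM from 286 and 1935 reads, a log2 ratio of 2.62 with a counting SD of 0.09. The pseudogene Gm10180 (56.1 and 147), Hist1h2ah (30.5 and 74.3), Terc and Kcnq1ot1 (0.749 and 1.53), an imprinted antisense RNA, also passed 2-fold. The other genes of the 10 were 5330431K02Rik (4.85 and 9.47), Gm42418, Hist1h2ae (24.9 and 45.9), Dpm3 (6.28 and 11.2) and Gm23935, typed as a microRNA (5677 and 10060). Histone genes moved as a group. Of 56 histone genes with at least 100 reads 53 were higher in replicate 2, against 5232 of 9578 nuclear protein-coding genes. The median log2 ratio of the histone genes was 0.39, and 10 of them passed 1.5-fold, against 0.47% of all genes. Ribosomal protein genes had a median of 0.06 over 83 genes.

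Genes higher in replicate 1 were led by Rps16, at 205 and 71.6 RPKM. In replicate 2 its digits also give whole reads when the point is moved up or down a place, and the reading rests on its level in the other libraries of the series, so this ratio is uncertain. mt-Rnr1 fell by 1.15 and mt-Rnr2 by 0.93 on the log2 scale from replicate 1 to replicate 2. Mitochondrial messages were also lower in replicate 2 in all 9 genes with at least 100 reads, with a median of -0.12. Gm29216 followed, and then Tmem136 (2.5 and 1.4), the pseudogene Gm9118 (19.7 and 11.7), BC048403 (2.79 and 1.71), C030034I22Rik (1.81 and 1.12), 4632415L05Rik (3.2 and 2) and Gm28196 (14.6 and 9.2). None of these 10 is a member of the identity lists. In those lists the largest difference among genes with at least 100 reads was that of Terc.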

How the data were processed

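The members and gene lists were chosen with earlier results of these data known. Alignment with STAR 2.5.2b, counting with featureCounts 1.5.1 and use of edgeR, on build GRCm38, are named per the submitters' processing notes. Which gene annotation and strand setting were used, and how reads that fit several genes were counted, is not given in the sources used here. For each library the authors deposited 1 value for each of 54838 genes under a header without a unit: the deposited values behave as RPKM in which values of 1 or more lost the decimal point (12334 and 12449 values in the siCtrl libraries).

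The decimal place was restored from the rule that RPKM times exonic length (GENCODE M21, which names 54809 of the genes) times counted reads is whole, within 1e-06 reads. Library totals were solved from intact values, of which 98.6% came out whole in each library. All 5 libraries of the series were used to choose between whole readings. They also entered the solved lengths and the odds by which genes were left out, and were used for nothing else. For 613 genes, 588 of them on chromosomes 17, 18 and 19, a length was solved as well, and the spread allowed for lengths was set so that restored reads sum to the totals (99.99% and 99.99%). In all, 57 genes with odds under 20 were left out, which held 0.24% and 0.227% of reads. The restoration and the ratios were tested on simulated data, with levels taken from the restored reads of genes with an annotated length. Solved lengths were not covered by that test.

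Members of lists were counted at 1 RPKM in both libraries. The genes named were the 20 nuclear coding genes of highest mean RPKM, the 10 noncoding genes of highest read share, the 8 highest present members of each identity list with defining members at 0, the 2 highest of each other-lineage list, the 5 highest of each programme list, and the 10 largest ratios in each direction. Other genes named, including mitochondrial messages and Mir17hg, were chosen after their values were seen. Some genes that this rule names are not reported here; they stay in the counts. Ratios took 0.5 added reads. Values under other thresholds, scales, restorations and single libraries were computed. Python 3.11.15, numpy 2.4.6, pandas 2.3.3 and scipy 1.17.1 were used.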

Additional observations from a re-analysis of the deposited data

How the results depend on the processing

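No paired analysis was possible because a single group was described and no result comes from a test. The counts of present genes stayed within 1.5 times under every alternative tried: 10065 to 14532 for all genes and 8987 to 11136 for nuclear protein-coding genes. The lowest counts came at 2 RPKM and the highest on the TPM scale. Left with a single library, 12278 to 12392 genes were present. Ranking by read share kept 10 of the 20 most abundant genes, TPM kept 20 and each single library kept 19. Without mitochondrial rRNA in the total the nuclear coding share was 94.5% and the pseudogene share 0.743%, both moved by construction. At 0.5 RPKM 15 other-lineage markers were present in place of 8, and at 2 RPKM 7; identity lists ran from 115 to 144 of 297 members. Of 47 lists 10 moved by more than 1.5 times at 0.5 RPKM and 5 at 2 RPKM. Genes past 1.5-fold between the libraries were 65 at 100 mean reads, 605 at 20, where counting error is larger, and 16 at 500; the TMM factor gave 59 and the median ratio 58. The SD of log2 ratios over all genes was 0.78 with a pseudocount of 0.1 and 0.27 with 1, which shrinks low genes. Restoration from the siCtrl libraries alone left out 132 genes and gave another value for 62 of 24472, so those decimal places rest on the other libraries. Depth limits short genes most: in replicate 1 the level that 3 reads give was 0.0163 RPKM for Fn1 and 0.336 for Npy.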
